A study of Mus musculus with 55 samples.

Results

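The genes described here are 10 members of the antioxidant programme controlled by the transcription factor NRF2, measured on the arrays of 55 mouse hearts. They are Nfe2l2, which encodes NRF2 itself, Gclc, Gclm, Gsr, Gsta3, Mgst1, Txnrd1, Srxn1, Nqo1 and Osgin1. They were chosen by name, with earlier results of these data known. The choice was made from the 18193 genes that had at least 1 probe set annotated to no other gene. The 10 members had 21 such probe sets. Each gene was represented by its brightest probe set on average, and all values are the deposited log2 signals, on which a step of 1 is a doubling. Each array held the RNA of 1 heart of a male Sv129 mouse. WT mice were of the substrain 129S1/SvImJ (25 arrays), and mice lacking the fatty acid receptor PPARα (PPARα-/-, called KO here) were of the substrain 129S4/SvJae (30 arrays), so that genotype and substrain differ together and cannot be told apart. All mice ate a modified AIN76A diet with olive oil for 2 weeks, were fasted for 4 h and received 400 µL by gavage, and the heart was taken 6 h later. The gavage was triolein, trilinolein, trilinolenin or tridocosahexaenoin (triglycerides of a fatty acid with 1, 2, 3 or 6 double bonds), the PPARα agonist Wy14643 at 10 mg/mL in 0.5% carboxymethyl cellulose, or that vehicle without it. The vehicle groups, called controls here, carry the tag "none" in 1 field of the labels, and the age is given as 9 to 12 weeks in 1 field and 2 to 6 months in another. There were 5 hearts in every KO group; in WT there were 3 controls, 5 each for trilinolein and tridocosahexaenoin, and 4 each for triolein, trilinolenin and Wy14643. The oils were matched by volume.

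NRF2 is held at a low level in resting cells by KEAP1, which hands it to the proteasome; electrophiles and oxidants, among them products of polyunsaturated fatty acid peroxidation, modify KEAP1, and NRF2 then builds up and binds antioxidant response elements near its target genes. Its targets make glutathione (Gclc and Gclm, the catalytic and modifier subunits of glutamate-cysteine ligase), regenerate it (Gsr, glutathione reductase), attach it to electrophiles or use it against peroxides (the glutathione transferases Gsta3 and Mgst1), and run the thioredoxin system (Txnrd1, thioredoxin reductase, and Srxn1, which repairs overoxidised peroxiredoxins). Nqo1 reduces quinones, and Osgin1 is an oxidative stress-induced growth inhibitor. NRF2 activity is regulated mainly through the stability of the protein.

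Promoter sequences were looked up in RefSeq (GRCm38.p6) for the windows from 250 bases before to 50 bases after each listed transcription start. Entries were found for 8 of the 10 genes, with Gclc and Gsr as the exceptions. The core of the antioxidant response element, TGACNNNGC, was searched on both strands. It lay in a window of 6 of these 8 genes (Nfe2l2, Gclm, Gsta3, Mgst1, Txnrd1 and Srxn1). The 8 genes had 11 windows, and each of the 6 held the core in 1 window. Of all 32851 windows, 12.4% held it. The bases before the annotated gene are shown for the 3 genes with the clearest changes below and for Nfe2l2 itself, whose mRNA passed no test against control. Capitals mark the match, read 5′ to 3′ on the gene's strand, so that the Gclm and Mgst1 matches appear as the reverse complement of the core.
Gclm (chr3:122245307-122245486, plus strand): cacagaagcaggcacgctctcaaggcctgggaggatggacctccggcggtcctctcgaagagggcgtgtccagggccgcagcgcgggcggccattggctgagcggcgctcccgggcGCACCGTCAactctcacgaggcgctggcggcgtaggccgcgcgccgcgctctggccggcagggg
Gsta3 (chr1:21240335-21240564, plus strand): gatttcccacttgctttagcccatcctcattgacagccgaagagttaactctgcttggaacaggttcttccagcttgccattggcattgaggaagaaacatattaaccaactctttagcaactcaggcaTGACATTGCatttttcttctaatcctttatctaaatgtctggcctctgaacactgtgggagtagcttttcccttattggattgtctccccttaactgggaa
Mgst1 (chr6:138140277-138140526, plus strand): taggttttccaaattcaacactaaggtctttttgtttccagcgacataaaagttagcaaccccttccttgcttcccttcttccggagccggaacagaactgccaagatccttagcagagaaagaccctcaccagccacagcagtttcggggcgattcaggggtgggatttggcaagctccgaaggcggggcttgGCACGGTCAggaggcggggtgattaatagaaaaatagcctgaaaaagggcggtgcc
Nfe2l2 (chr2:75704664-75704913, minus strand): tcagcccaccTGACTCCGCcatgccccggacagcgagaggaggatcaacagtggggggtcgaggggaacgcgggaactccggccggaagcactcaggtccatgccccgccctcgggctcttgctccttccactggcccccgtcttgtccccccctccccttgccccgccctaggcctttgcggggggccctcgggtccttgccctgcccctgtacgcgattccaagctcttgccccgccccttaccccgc
In Gclm the match starts at base -134 from the listed start, in Gsta3 at -121, in Mgst1 at -56 and in Nfe2l2 at -240. For Gclm and Gsta3 the listed start lies inside the annotated gene. Their sequences above therefore stop short of it, with 180 and 230 of the 250 bases before it. The AP-1 site TGANTCA, which shares its first bases with the core, lay in the windows of Srxn1 (2 matches) and Osgin1 (1 match, TGACTCA at -97), and in 7.81% of all windows. A PPAR element, the direct repeat of AGGTCA with 1 base between the copies, lay in none of the members' windows and in 0.0396% of all. These matches describe the sequence only, and genes with a match were found both among those that changed and among those that did not pass the test.

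All 10 genes exceeded 20 on the linear scale (4.32 on the log2 scale) in at least 3 arrays and were tested by limma, with p-values adjusted over all 8237 genes of a comparison and called under 0.05. Osgin1 passed this minimum in only 11 of 55 arrays, 9 of them from WT hearts given trilinolein, trilinolenin or tridocosahexaenoin, and in no control heart, so that the size of its change rests on dim signals. Gsta3 passed in 47 arrays, but in only 1 of 5 KO control hearts. The other 8 genes passed in all 55. Heart muscle markers were bright in every group, with a summed linear level of 111100 to 122300. The 3 neutrophil, 4 adipocyte and 3 liver markers with a probe set each exceeded 20 in fewer than 3 arrays. The control hearts of the KO mice had less Ppara signal than those of WT mice, by -0.73 ± 0.13 (SE) on the log2 scale (adjusted p = 0.000132), with 18 of 30 KO arrays below every WT array for this probe set and 29 and 10 for the other 2; whether these probe sets lie in the deleted part was not analysed here.

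Gclm and Gclc make the rate-limiting enzyme of glutathione synthesis. Gclm was raised by trilinolein and trilinolenin in KO hearts, by up to 1.99-fold, and moved the same way in WT hearts without passing the test there. In KO hearts the Gclm signal was 6.58, 6.67, 7.04, 7.17 and 7.28 in controls and 7.32, 7.68, 8.09, 8.28 and 8.33 after trilinolenin. After trilinolein it was 7.48, 7.81, 7.97, 8.02 and 8.28, so that all 10 hearts given these oils lay above all 5 controls. The change was 0.99 ± 0.25 (SE) for trilinolenin (1.99-fold, adjusted p = 0.00598) and 0.97 ± 0.25 for trilinolein (1.95-fold, adjusted p = 0.0184). The trilinolein call was lost without KO control replicate 1 (adjusted p = 0.0512) or 4 (0.0583), or without KO trilinolein replicate 4 (0.0681) or 5 (0.0502).

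In WT hearts, Gclm read 7.10, 7.29 and 7.46 in controls, 7.69, 7.75, 7.98, 8.04 and 8.14 after trilinolein, and 7.58, 7.79, 8.06 and 8.47 after trilinolenin. Again no array of these oils overlapped the 3 controls, but the differences, 0.64 ± 0.29 and 0.69 ± 0.30, did not pass the test (adjusted p = 0.342 and 0.225). Tridocosahexaenoin gave 7.84, 8.19, 8.23 and 8.38 in 4 WT hearts and 6.61 in replicate 4, below every control, and 7.08, 7.28, 7.64, 7.91 and 8.17 in KO hearts; neither difference passed (adjusted p = 0.358 and 0.126). After triolein Gclm read 7.24, 7.30 and 7.37 in 3 WT hearts, within the control range, and 5.97 in replicate 2, below every control. In KO hearts it read 6.83, 7.11, 7.38, 7.55 and 7.68, with 3 of 5 hearts above every control, and neither difference passed the test (adjusted p = 0.931 and 0.512). A second bright Gclm probe set was called for trilinolenin in KO hearts (1.23, adjusted p = 0.0146) and not for trilinolein (0.97, adjusted p = 0.108), with p-values adjusted over 13429 bright probe sets.

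Gclc, the catalytic partner, passed the test in no comparison with control. Its signal in WT hearts was 6.47, 6.48 and 6.55 in controls against 6.02, 6.12, 6.20 and 6.24 after trilinolenin, where every array lay below the controls (-0.35 ± 0.17, adjusted p = 0.274). In KO hearts it was 5.93, 6.33, 6.34, 6.42 and 6.53 in controls against 6.38, 6.56, 6.73, 6.76 and 7.08 after trilinolenin (0.39 ± 0.14, adjusted p = 0.0555). After tridocosahexaenoin all 5 KO hearts, at 6.55 to 6.93, lay above the controls (0.44 ± 0.14, adjusted p = 0.0663). These KO values sit close to the threshold: without trilinolenin replicate 3 the first reached an adjusted p of 0.0267, and without tridocosahexaenoin replicate 4 the latter reached 0.039. A second bright Gclc probe set gave smaller differences here, none called over 13429 bright probe sets. They were 0.17 (adjusted p = 0.408) after trilinolenin and 0.24 (0.292) after tridocosahexaenoin in KO hearts. After trilinolenin in WT hearts this set gave -0.19 (0.566). The mean of the Gclc probe sets was called after tridocosahexaenoin in KO hearts (0.34, adjusted p = 0.0475). Gsr, which returns oxidised glutathione to its reduced form, stayed between 4.75 and 5.47 in all 55 hearts and passed no test, its largest difference from control being -0.24 ± 0.10 after tridocosahexaenoin in KO hearts (adjusted p = 0.191).

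Gsta3, an alpha-class glutathione transferase, showed the largest change of the 10 genes. In WT hearts it read 4.39, 4.56 and 4.74 in controls and 5.31, 5.74, 5.77 and 6.34 after trilinolenin, without overlap. In KO hearts it read 3.88, 4.00, 4.09, 4.25 and 4.46 in controls and 5.19, 5.27, 5.50, 5.56 and 5.57 after trilinolenin, again without overlap. Trilinolenin therefore raised Gsta3 by 1.22 ± 0.33 in WT (2.33-fold, adjusted p = 0.025) and by 1.28 ± 0.27 in KO hearts (2.44-fold, adjusted p = 0.00111). The WT call was lost without any of the 3 WT controls (adjusted p = 0.0767, 0.128 and 0.0578 without replicates 1, 2 and 3) or without trilinolenin replicate 2 (0.1).

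Trilinolein gave Gsta3 signals of 4.71, 4.93, 5.05, 5.25 and 6.50 in KO hearts, a rise of 1.15 ± 0.27 (2.23-fold, adjusted p = 0.0099) that fell to 0.85 (adjusted p = 0.0864) without replicate 4, the array at 6.50, and had an adjusted p of 0.0523 in a fit of only the 2 groups. In WT hearts trilinolein gave 4.79, 4.94, 5.27, 5.41 and 5.77, above all controls, with a difference of 0.67 ± 0.31 that did not pass (adjusted p = 0.349). After tridocosahexaenoin the signal was 4.81 to 5.51 in WT hearts, and in KO hearts 4.58 to 5.15 in 4 arrays and 3.37 in replicate 1. Triolein gave 4.51 to 5.31 in WT and 3.73 to 5.08 in KO hearts, and Wy14643 gave 4.62 to 5.47 and 3.80 to 4.92. Of these, none passed the test. Since the KO control mean lay under the brightness minimum, the fold in KO hearts is less certain than that in WT hearts.

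Mgst1, a membrane-bound transferase that also reduces lipid peroxides, was raised after 2 oils in WT and 3 in KO hearts. Its signal in WT hearts was 9.31, 9.59 and 9.75 in controls, 10.03, 10.14, 10.14, 10.25 and 10.36 after trilinolein, and 10.10, 10.15, 10.17 and 10.28 after trilinolenin. In KO hearts it was 9.50, 9.52, 9.53, 9.73 and 9.79 in controls, 9.79, 9.88, 10.02, 10.17 and 10.29 after trilinolein, and 9.78, 9.83, 9.94, 10.06 and 10.30 after trilinolenin. The WT groups did not overlap, and in KO hearts the groups met only near 9.79. The rises were 0.63 ± 0.11 and 0.62 ± 0.12 in WT hearts (1.55- and 1.54-fold, adjusted p = 0.00162 and 0.00292) and 0.42 ± 0.098 and 0.37 ± 0.098 in KO hearts (1.33- and 1.29-fold, adjusted p = 0.0101 and 0.00912).

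Tridocosahexaenoin raised Mgst1 in KO hearts, where the arrays at 9.82, 9.93, 9.97, 10.09 and 10.23 all lay above the controls (0.39 ± 0.098, 1.31-fold, adjusted p = 0.0172). The WT arrays at 9.71 to 10.23 overlapped the controls (0.36 ± 0.11, adjusted p = 0.0925). The KO call was lost without KO control replicate 3 (adjusted p = 0.0668) or KO tridocosahexaenoin replicate 3 (0.0623) or 5 (0.0947), the KO trilinolein call without its replicate 4 (0.0702), and the WT trilinolein call without WT control replicate 3 (0.0619). In fits of only the 2 groups compared, the KO calls for trilinolein, trilinolenin and tridocosahexaenoin had adjusted p-values of 0.0523, 0.0555 and 0.141, and averaging Mgst1 with its second probe set, which was under the brightness minimum on all arrays, ended the calls for trilinolein in WT (0.27, adjusted p = 0.0666) and for trilinolein and tridocosahexaenoin in KO hearts (adjusted p = 0.156 and 0.167). Triolein gave 9.67 to 10.05 in WT and 9.61 to 9.82 in KO hearts, and Wy14643 gave 9.37 to 9.58 and 9.58 to 9.86, which passed no test.

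**Figure D1:**
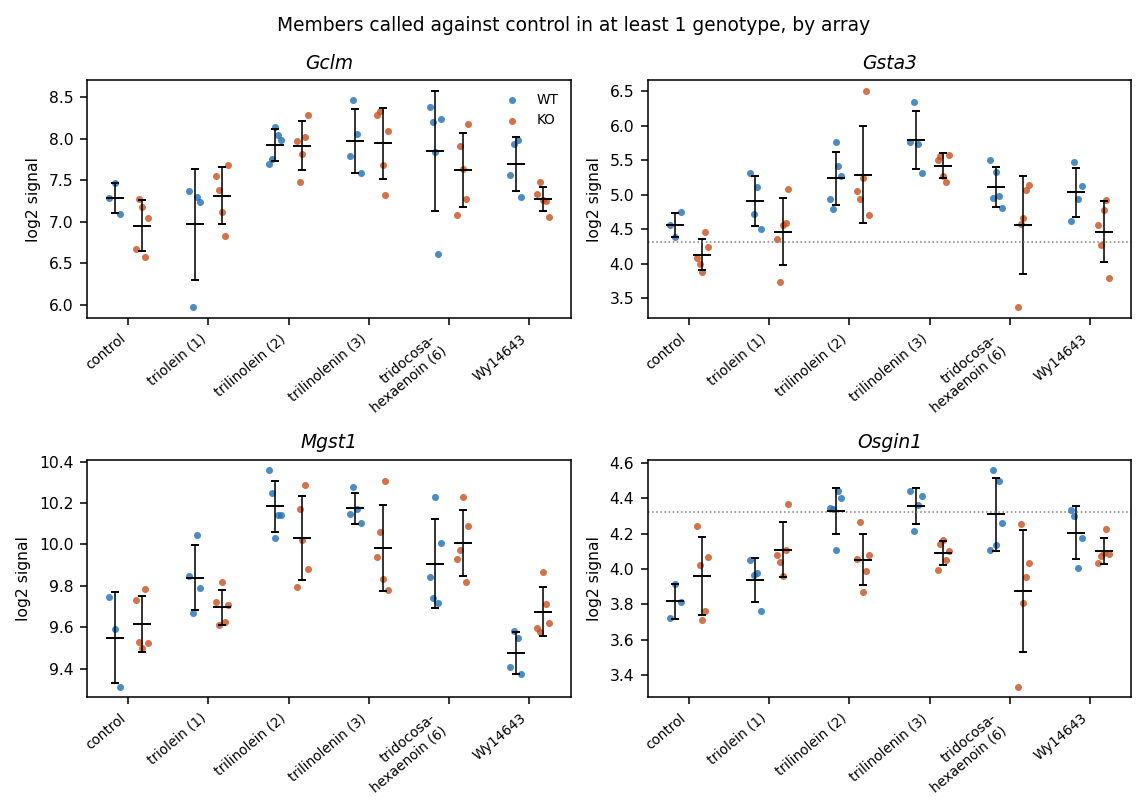
The log2 signal of Gclm, Gsta3, Mgst1 and Osgin1 on each array, with gavages ordered by the double bonds of the oil (in parentheses); coloured points are arrays, black marks are the group mean ± SD and the dotted line is the brightness minimum at 4.32. The trilinolein and trilinolenin arrays of Gclm lie above all control arrays in both genotypes, while Osgin1 sits near or below the minimum throughout.

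Osgin1 was dim, and it entered the test only because of groups where it was high, so its values are given as a description and its calls support nothing. It read 3.72, 3.81 and 3.92 in WT controls, 4.11, 4.34, 4.34, 4.40 and 4.44 after trilinolein, 4.21, 4.36, 4.41 and 4.44 after trilinolenin, and 4.11, 4.14, 4.26, 4.50 and 4.56 after tridocosahexaenoin. All 14 of these arrays lay above the controls, with differences of 0.51 ± 0.12 (adjusted p = 0.0274), 0.54 ± 0.13 (0.0142) and 0.49 ± 0.12 (0.0311). After Wy14643 all 4 WT arrays, at 4.00 to 4.33, also lay above the controls (0.39, not called), as did 3 of 4 after triolein. In KO hearts the controls at 3.71, 3.76, 4.02, 4.07 and 4.24 overlapped every other group, and the 5 differences ranged from -0.09 to 0.15. Without WT control replicate 1 the 3 WT calls were lost (adjusted p = 0.122, 0.0694 and 0.155), the trilinolein and tridocosahexaenoin calls were also lost without control replicate 2 or 3, and the trilinolein and tridocosahexaenoin calls were lost without replicate 2 or 5 of their own groups (0.0549 to 0.0801). With no filter on dim genes the trilinolein and tridocosahexaenoin calls were lost too (0.055 and 0.0603), as was the latter in a fit of only the 2 groups compared (0.146).

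Nfe2l2 mRNA varied little. Its 12 group means spanned 0.222 log2 units, from 9.06 in WT controls to 9.28 after tridocosahexaenoin in WT hearts. The 3 WT controls, at 9.05, 9.05 and 9.08, lay below all 5 arrays of tridocosahexaenoin (9.22 to 9.33), all 5 of trilinolein (9.17 to 9.33) and all 4 of Wy14643 (9.23 to 9.32). The differences were 0.22 ± 0.066 (adjusted p = 0.0636), 0.19 ± 0.066 (0.161) and 0.21 ± 0.069 (0.339) and did not pass. That of tridocosahexaenoin did pass with array weights (adjusted p = 0.0248), the filter at 100 (0.0453) and quantile normalization again (0.0432). In KO hearts the controls, at 9.11 to 9.24, overlapped every gavage group, with differences of -0.10 to 0.03.

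The thioredoxin genes and Nqo1 passed no test against control within either genotype. Txnrd1 lay between 7.84 and 8.60 in all hearts, and all 10 of its differences from control were below 0, from -0.22 ± 0.096 after triolein in WT hearts (adjusted p = 0.723) to -0.04 ± 0.079. Srxn1 lay between 4.75 and 5.84, with its largest difference, 0.29 ± 0.15, after tridocosahexaenoin in KO hearts (adjusted p = 0.298). Nqo1, often used as the reference NRF2 target, read 7.88, 8.05, 8.07, 8.10 and 8.16 in KO controls and 7.90, 7.90, 7.93 and 7.95 in 4 KO trilinolenin hearts, with 6.61 in replicate 5 (-0.39 ± 0.16, adjusted p = 0.0943). Its WT signals after trilinolenin, at 7.31, 7.36, 7.82 and 7.97, lay on both sides of the controls at 7.70, 7.79 and 7.79.

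Counted over the 10 members, every call within a genotype was after trilinolein, trilinolenin or tridocosahexaenoin. Osgin1 is left out of the counts here, as it passed the brightness minimum in no control heart and mainly in the WT hearts given these oils; with it each of the 3 WT counts is 1 higher. In WT hearts 1 of the other 9 was called after trilinolein (Mgst1), where 1.25% of all tested genes were called; 2 of 9 after trilinolenin (Mgst1 and Gsta3), against 3.41%; and 0 of 9 after tridocosahexaenoin, against 1.86%, with 2 of the 9 (Nfe2l2 and Mgst1) at an unadjusted p under 0.05 against 14.8% of all genes. In KO hearts 3 of 9 were called after trilinolein and 3 of 9 after trilinolenin (Gclm, Gsta3 and Mgst1 each time), against 4.32% and 11.9% of all tested genes, and 1 of 9 after tridocosahexaenoin (Mgst1), against 3.54%. All of these calls were higher than control. At an unadjusted p under 0.05, Osgin1 aside, trilinolein gave Nfe2l2, Gclm, Gsta3 and Mgst1 higher in WT (12.6% of all genes). In KO hearts it gave Gclm, Gsta3 and Mgst1 higher and Txnrd1 lower (17.3%). Trilinolenin gave Gclm, Gsta3 and Mgst1 higher in both, with Gclc lower in WT (16.7%). In KO hearts Gclc was higher and Gsr and Nqo1 lower (25.5%). Tridocosahexaenoin in KO hearts gave Gclc, Gclm and Mgst1 higher and Gsr lower (17.7%). After triolein limma called 0 members in WT hearts, where 0.0728% of genes were called, and 0 in KO hearts, where 1.15% were; at an unadjusted p under 0.05 there were 3 in WT (Gclc and Txnrd1 lower, Mgst1 higher) and 0 in KO hearts, against 6.4% and 14.7% of all genes. After Wy14643, 0 members were called in WT (background 0.0607%) and 0 in KO hearts (0.0728%). At an unadjusted p under 0.05 were Nfe2l2 in WT, against 7.45% of all genes, and 0 members in KO hearts, against 9.88%. Osgin1, left out here, was also under this threshold in WT hearts. All comparisons of a genotype share its control hearts. The members were chosen with earlier results of these data known, so these counts and those below are descriptions beside the shares of all genes.

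With the WT and KO differences averaged, a comparison added after the data were seen, trilinolein raised 3 of the 9 members other than Osgin1, against 9.04% of all genes called, and trilinolenin raised 3 of 9, against 18.2%. For trilinolein these were Gclm (0.80 ± 0.19, adjusted p = 0.00446), Gsta3 (0.91 ± 0.21, 0.00247) and Mgst1 (0.53 ± 0.075, 8.89e-06). Trilinolenin raised Gclm by 0.84 ± 0.20 (0.00174), Gsta3 by 1.25 ± 0.21 (3.64e-05) and Mgst1 by 0.50 ± 0.077 (1.09e-05). Osgin1 differed by 0.30 ± 0.083 (0.0144; 0.0509 without WT control replicate 1) and 0.33 ± 0.085 (0.00373), subject to the same limit as within WT. Tridocosahexaenoin raised 2 of 9, against 11.4% of all genes: Mgst1 by 0.38 ± 0.075 (adjusted p = 0.0007025) and Gclm by 0.62 ± 0.19 (0.0268). The Gclm call after tridocosahexaenoin was lost when any of 6 arrays was left out (KO control 4, KO tridocosahexaenoin 5, WT controls 1 and 3, WT tridocosahexaenoin 1 and 5; adjusted p = 0.0526 to 0.0703), in a fit of only these groups (0.0953) and with the mean of both probe sets (0.44, adjusted p = 0.173). For triolein and Wy14643, 0 members were called, where 0.85% and 0.304% of genes were. At an unadjusted p under 0.05 there were 2 for triolein (Mgst1 higher, Txnrd1 lower), against 14.8% of all genes. For Wy14643 there were 0 other than Osgin1, against 12.6%. Some decreases in this mean passed only under other settings. Txnrd1 after trilinolein (-0.17, adjusted p = 0.0677) passed with array weights (0.0223), the mean of all probe sets (0.0281), only the groups compared (0.0343) and quantile normalization again (0.0422). With the mean of all probe sets, which adds 2 sets for Txnrd1 and 1 for Gsr that passed the brightness minimum on 0 arrays, Txnrd1 also passed after trilinolenin (-0.16, 0.0109) and triolein (-0.17, 0.0458), and Gsr after trilinolenin (-0.19, 0.0165). Gsr after trilinolenin passed with array weights as well (-0.26, 0.0165).

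**Figure D2:**
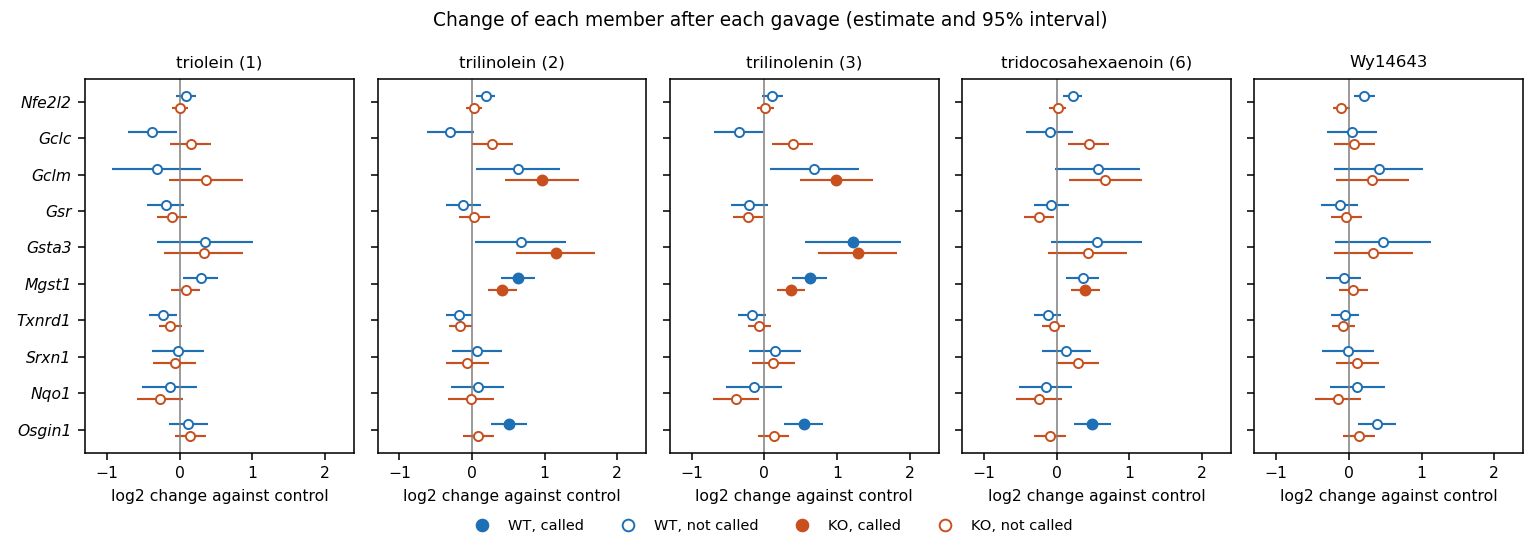
The log2 change from the control hearts of the same genotype for each member and gavage, with its 95% interval; filled points passed an adjusted p of 0.05, WT in blue and KO in orange. After trilinolein, points are filled for Mgst1 in both genotypes and for Gclm and Gsta3 in KO hearts. After trilinolenin they are filled for Gsta3 and Mgst1 in both and for Gclm in KO hearts. After tridocosahexaenoin Mgst1 is filled in KO hearts. Osgin1, whose calls support nothing, is filled in WT hearts after each of these oils. None is filled after triolein or Wy14643, where 0.0607% to 1.15% of all genes were called.

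The 4 oils were then set against each other, as the mean of the WT and KO differences, with 6 pairs for each member. They share a gavage volume but differ in the fatty acid: the first 3 have 18 carbons and 1, 2 or 3 double bonds, and tridocosahexaenoin has 22 carbons and 6 double bonds. Trilinolein was above triolein for Gclm by 0.78 (95% interval 0.41 to 1.14, adjusted p = 0.014 over all genes and 0.000316 over the 6 pairs) and for Mgst1 by 0.34 (0.20 to 0.48, 0.00596 and 0.000126). Thus 2 of 10 members were called, against 1.92% of all genes. The Gclm call was lost without WT triolein replicate 2, the heart at 5.97 (0.61, adjusted p = 0.0802 over all genes).

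Trilinolenin was above triolein for 3 of 10 members, against 6.05% of all genes, and these calls held without any 1 array. Gsta3 was higher by 0.91 (95% interval 0.51 to 1.32, adjusted p = 0.00402 over all genes and 0.000266 over the 6 pairs), Gclm by 0.82 (0.44 to 1.20, 0.00566 and 0.000316) and Mgst1 by 0.31 (0.16 to 0.46, 0.00701 and 0.000346). Tridocosahexaenoin against triolein gave 0 calls over all genes, where 0.789% were called; Gclm differed by 0.59 (0.23 to 0.96, adjusted p = 0.101 over all genes and 0.00435 over the 6 pairs), and 4 members had an unadjusted p under 0.05 (Gclc, Gclm, Mgst1 and Srxn1, all higher), against 11.9% of all genes.

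The oils with more than 1 double bond were compared in the same way. Trilinolenin against trilinolein gave 0 calls among all genes (0%), with intervals of -0.33 to 0.41 for Gclm, -0.06 to 0.74 for Gsta3 and -0.17 to 0.12 for Mgst1, and with 2 members, Gsr (-0.17) and Nqo1 (-0.30), lower at an unadjusted p under 0.05, as 5.4% of all genes were in either direction. These intervals include 0 but do not show that the oils act alike. Gsta3 was lower after tridocosahexaenoin than after trilinolenin by -0.76 (-1.16 to -0.37, adjusted p = 0.0216 over all genes and 0.00103 over the 6 pairs), the 1 member called where 3.01% of genes were. That call was lost without KO tridocosahexaenoin replicate 1, the heart at 3.37 (adjusted p = 0.0696), or WT trilinolenin replicate 2 (0.0617), and in a fit of only these groups (0.0745). Tridocosahexaenoin against trilinolein gave 0 member calls, against 3.48%, with Gsta3, Mgst1 and Nqo1 lower at an unadjusted p under 0.05, against 16.7% of all genes.

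**Figure D3:**
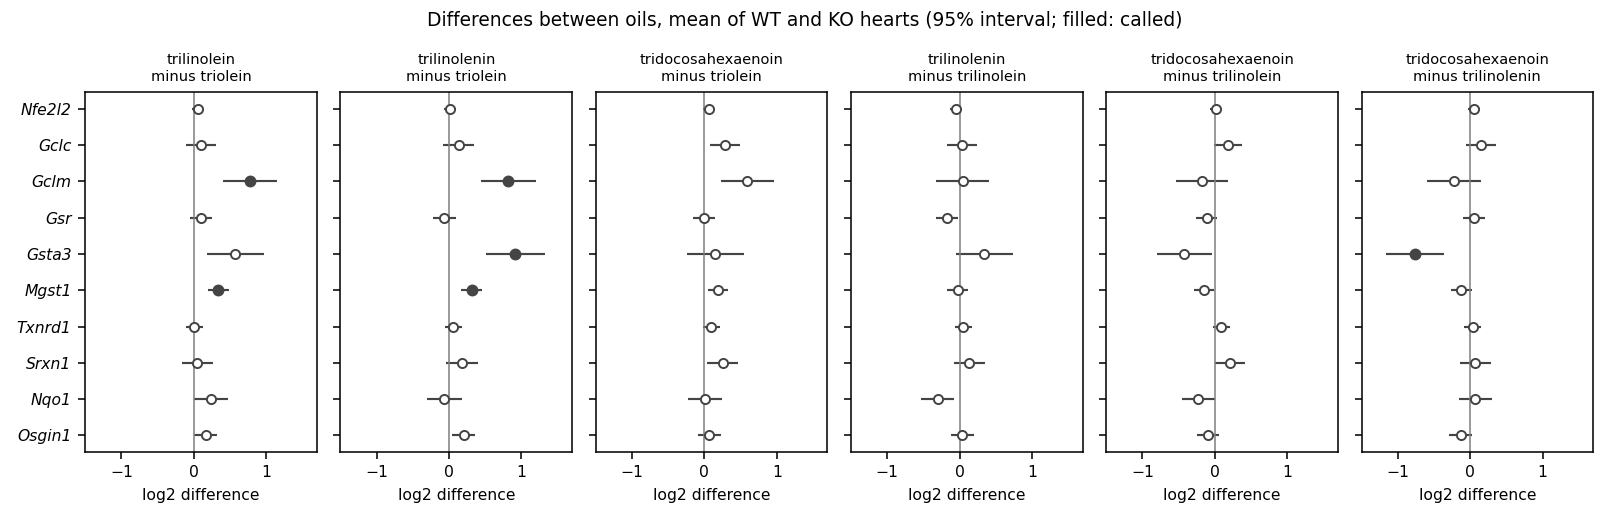
Log2 differences between pairs of oils, as the mean of both genotypes, with 95% intervals for each member; filled points passed an adjusted p of 0.05 over all genes. Gclm and Mgst1 lie above 0 for trilinolein and trilinolenin against triolein, and Gsta3 lies below 0 for tridocosahexaenoin against trilinolenin.

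A slope over the number of double bonds was also fitted. It was called for 0 members in WT hearts, in KO hearts or in their mean, where 1.18%, 0.0121% and 1.55% of genes were called. Leaving out Osgin1, the members with a slope at an unadjusted p under 0.05 were as follows. In WT hearts it was Gclm, rising, against 11.3% of all genes. In KO hearts Mgst1 and Srxn1 rose and Gsr fell, against 7.28%. In the mean there were 3 (Gclc, Gclm and Srxn1, rising), against 14.1%. Osgin1, rising in WT and falling in KO hearts, was also under this threshold. Its slopes support nothing, since it entered the test only because of groups where it was high. The Gclm slope in WT hearts was 0.12 ± 0.049 per double bond (adjusted p = 0.291, or 0.022 without tridocosahexaenoin replicate 4, the heart at 6.61). The Gsta3 slope was 0.02 ± 0.053 in WT and -0.04 ± 0.051 in KO hearts.

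KO and WT control hearts did not differ in any member by the test: 0 of 10 were called, against 3.62% of all genes, and 0 had an unadjusted p under 0.05, against 13.1%. Over the mean of all 6 gavages, 4 of 10 were called, and 3 of 9 without Osgin1, which is near the 39% of all genes called in that comparison. Gclc was higher in KO hearts by 0.21 ± 0.06 (adjusted p = 0.00423) and Txnrd1 by 0.16 ± 0.034 (0.000174), while Gsta3 was lower (-0.39 ± 0.12, 0.00716). Osgin1 was lower too (-0.13 ± 0.047, 0.0267), subject to the limit given for it above. Cell markers moved in the same comparison: of 8 macrophage markers 6 were higher in KO hearts, among them Cd14 (0.51), Mrc1 (0.34), Cd68 (0.32) and C1qa (0.30), and Lyz2 was lower (-0.19); 4 of 8 fibroblast markers were lower and 1 was higher, 2 of 8 endothelial markers were higher and 2 lower, and the skeletal muscle actin gene Acta1 was lower (-1.87). Their part in the member differences was not tested.

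Whether the genotypes responded differently was tested as the KO response minus the WT response. For each of the 5 gavages 0 members and 0% of all genes were called. At an unadjusted p under 0.05, which 3.1% to 4.84% of all genes had, Gclc differed after all 4 oils, which share the same controls. The difference was largest after trilinolenin (0.75 ± 0.22, unadjusted p = 0.00135, adjusted p = 0.869). The Gclc differences from control were below 0 in WT and above 0 in KO hearts. A second bright Gclc probe set gave smaller values, none called over 13429 bright probe sets. They were 0.26 ± 0.185 after triolein, 0.37 ± 0.18 after trilinolein, 0.35 ± 0.185 after trilinolenin and 0.24 ± 0.18 after tridocosahexaenoin. Nfe2l2 differed after tridocosahexaenoin (-0.21) and Wy14643 (-0.32 ± 0.09, unadjusted p = 0.000865, adjusted p = 0.64). Osgin1 was at the same threshold after trilinolein, trilinolenin and tridocosahexaenoin (-0.42, -0.41 and -0.58). It entered the test mainly through WT hearts given these oils, so its differences support nothing. For the genes with the largest changes the intervals of the trilinolenin difference were wide: -0.49 to 1.09 for Gclm, -0.79 to 0.91 for Gsta3 and -0.57 to 0.05 for Mgst1.

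The members had different patterns across the groups. Over the 12 group means, the closest pairs were Gclm with Gsta3 (r = 0.820), Gsta3 with Mgst1 (0.684), Gclc with Txnrd1 (0.680) and Gclm with Mgst1 (0.657), whereas the 2 ligase subunits, Gclc and Gclm, had r = 0.262. These are descriptions over means that share the same hearts. Among all tested genes, the 3 most like Gclm were Hmox1 (r = 0.929), which encodes heme oxygenase 1, Mospd1 (0.921) and Rnf114 (0.909). Gsta3 was followed most closely by Bmp4 (0.967), a secreted growth factor, Pik3ip1 (0.949) and Serpini1 (0.935), and Mgst1 by Cript (0.951), Wdr45 (0.943) and Iigp1 (0.936). For Osgin1 they were Stx2 (0.945), Supt20 (0.883) and Gata2 (0.882), and for Nfe2l2 Prpf39 (0.900), Carhsp1 (0.862) and Zfp592 (0.859). Gclc was nearest Myrip (0.895), Aebp2 (0.894) and Nvl (0.890), Txnrd1 nearest Mlxipl (0.949), Zc3h7b (0.945) and Ppip5k1 (0.943), and Gsr nearest Uevld (0.890), Phyh (0.868) and Dbp (0.847). Srxn1 had Fam216a (0.860), Nelfe (0.846) and Golga5 (0.842), and Nqo1 had Ndufa9 (0.870), Clcn4 (0.853) and Ubl3 (0.849).

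Deviations from the group means showed whether single hearts with more Nfe2l2 mRNA also had more of its targets. Of 9 relations over 55 hearts, that of Mgst1 alone passed by Pearson's r: r was 0.413 (permutation p = 0.00237, 0.0213 adjusted over the 9) and Spearman's rho was 0.386 (permutation p = 0.00558, adjusted 0.0502). Without the 2 hearts farthest from the median of Nfe2l2, r was 0.337, and it was 0.202 within WT and 0.536 within KO hearts. The other 8 relations had adjusted p-values of 0.368 or more, and r for Gclm was -0.0475. Within WT hearts r was larger than that of Mgst1 for Txnrd1 (0.556), Srxn1 (0.462), Gsr (0.42), Gclc (0.359) and Gsta3 (0.305), against 0.0663, 0.137, -0.0569, -0.175 and 0.16 within KO hearts, where Mgst1 had 0.536.

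Other genes of the same pathways were taken from lists, chosen with earlier results of these data known, that left out the 10 members. Of 22 tested targets of NRF2 other than the members, the called ones were mostly higher. In WT hearts 1 was called higher after trilinolein (Aldh9a1), 5 after trilinolenin and 3 after tridocosahexaenoin, and in KO hearts 4, 5 and 2. Entpd5 was called lower after tridocosahexaenoin in both genotypes and after trilinolenin in KO hearts. Over all tested genes, in either direction, 1.25%, 3.41% and 1.86% were called in WT and 4.32%, 11.9% and 3.54% in KO hearts. Hmox1, which degrades heme, was raised by 2.84 ± 0.68 after trilinolenin (adjusted p = 0.0133) and 2.68 ± 0.65 after tridocosahexaenoin (0.0253) in WT hearts, and by 2.23 ± 0.56 after trilinolein (0.0157) and 3.04 ± 0.56 after trilinolenin (0.000299) in KO hearts. The metallothionein genes Mt1 and Mt2, which bind metals, were called in 5 of the 6 comparisons of those oils with control, Mt2 by 1.20 to 1.87. Aldh1a1, an aldehyde dehydrogenase, was raised by 0.85 ± 0.17 after trilinolenin in WT hearts (adjusted p = 0.00302) and by 0.84 ± 0.14 in KO hearts (7.68e-05). The median change over this list after trilinolenin was 0.0867 in WT and 0.02 in KO hearts, against -0.0268 and -0.0233 over all genes.

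Of 29 tested genes of glutathione synthesis and use, 1 was called after trilinolenin in WT hearts and 1, 3 and 2 after trilinolein, trilinolenin and tridocosahexaenoin in KO hearts; all genes were called at 3.41% in that WT comparison and at 4.32%, 11.9% and 3.54% in these. The 1 gene called each time was Chac1, which breaks glutathione down, higher by 1.14 ± 0.28 in WT (adjusted p = 0.0164) and by 1.28 ± 0.23, 1.68 ± 0.23 and 1.18 ± 0.23 in KO hearts (0.000916, 1.75e-05 and 0.00269). Of 17 thioredoxin and peroxiredoxin genes, Sesn1, a stress-induced sestrin, was higher after trilinolenin and tridocosahexaenoin in WT (0.56 ± 0.13 and 0.69 ± 0.13) and after those and trilinolein in KO hearts (0.64, 0.40 and 0.51), and Txnip, the thioredoxin inhibitor, was higher after trilinolein and trilinolenin in KO hearts (0.35 and 0.44), where Txndc12 and Msrb3 were lower after trilinolenin. Among 12 NRF2 partners and regulators, the small MAF gene Maff was higher after tridocosahexaenoin in WT (1.08 ± 0.27, adjusted p = 0.0311) and after trilinolenin in KO hearts (1.00 ± 0.23, 0.0029), the latter with Sqstm1 (0.30 ± 0.10, 0.0479). Of 15 genes that supply NADPH, Rpia was lower after trilinolenin and tridocosahexaenoin in KO hearts (-0.46 and -0.40). Of 5 genes that remove superoxide and peroxide, 0 were called after any gavage, where 0.0607% to 11.9% of all genes were called within a genotype. Within a genotype, no gene of these 6 lists was called after triolein, where 0.0728% of all genes were called in WT and 1.15% in KO hearts. None was called after Wy14643 either, where 0.0607% and 0.0728% of all genes were. In the mean of genotypes Txnip was called higher after triolein (0.35 ± 0.082, adjusted p = 0.0229), where 0.85% of all genes were called.

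Between KO and WT control hearts, where no member was called, genes of the lists were. Glo1, which detoxifies methylglyoxal with glutathione, was lower in KO hearts (-0.81 ± 0.069, adjusted p = 7.9e-13), as were Me1, the NADPH-producing malic enzyme (-0.89 ± 0.095, 8.04e-10), and catalase, Cat (-0.72 ± 0.080, 2.66e-09). Gpx1, Gsta4, Gstm2 and Gstt2 were higher, by 0.36, 0.39, 0.32 and 0.47, and Aldh1l1 by 1.00. Nfe2l1, a relative of Nfe2l2, was lower by -0.53 ± 0.11 (adjusted p = 0.00171), and Nadk2, Aldh9a1 and Aox1 were lower as well (-0.38, -0.60 and -0.56). In whole hearts, fewer cells of a type and less RNA per cell cannot be told apart, and genotype and substrain differ together here.

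Markers of other cells and of RNA quality were read beside these results. After trilinolein and trilinolenin, in WT and KO hearts, 0 of 7 heart muscle, 0 of 4 atrial and 0 of 5 smooth muscle markers were called. The summed linear level of the atrial markers was nonetheless 6384 to 9313 (median 9060) in WT controls, 4740 to 16790 (15440) after trilinolein and 5940 to 15110 (13500) after trilinolenin, and in KO hearts 5125 to 17690 (7633), 7437 to 19660 (9207) and 8268 to 16610 (13000). Of 8 macrophage markers, Cd163 was higher after trilinolein (0.60), trilinolenin (0.69) and tridocosahexaenoin (0.73, with Cd14 at 1.16) in KO hearts and none was called in WT hearts; their summed linear level was 1511 to 1986 in KO controls and 1624 to 1932 after trilinolenin. Of 8 fibroblast markers, Col1a1 and Col3a1 were lower after trilinolein and trilinolenin in KO hearts (-0.72 to -0.87), with summed levels of 6174 to 6850 in KO controls and 6101 to 6957 after trilinolenin. Of 8 endothelial markers, Kdr was lower after trilinolenin in WT (-0.85) and KO hearts (-0.61, with Emcn at -0.39), and Esam was higher in KO hearts after trilinolein (0.37) and trilinolenin (0.54). The 3′ minus 5′ signal of the Actb control probe sets, a sign of RNA integrity, was 0.701 to 0.866 in WT controls and 0.474 to 0.720 after trilinolenin, and 0.719 to 0.905 in KO controls and 0.646 to 0.746 after trilinolenin. The part of these markers and of RNA quality in the changes of the members was not tested.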

How the data were processed

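Per the submitters' processing notes, the authors made the deposited log2 signals with GCRMA 2.2.0, and the other versions were not given in the sources used. The labels name separate mice, 1 array per heart. Array medians were 2.554 to 2.6125, and the number of arrays per group limits the precision. The values were used as deposited. Of 45101 probe sets, 34958 carried 1 gene symbol, 932 several and 9211 none; 13 control probe sets were left out. Among probe sets of a gene, the one brightest on average was kept. Genes were tested (8237 of 18193) where 3 or more arrays exceeded 20 on the linear scale. A model of 12 group means was fitted in limma 3.58.1 (R 4.3.3; 43 residual and 3.255 prior degrees of freedom), with Benjamini-Hochberg adjustment over the genes tested in each comparison. The script was tested on simulated data.

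The members, gene lists and tests were chosen with earlier results of these data known. All 10 members were tested in every comparison, and every called member was named, while differences that did not pass were described only in part. Some of the called genes of each list and the 3 genes most like each member over the group means were named. Relations to Nfe2l2 used 100000 permutations. Alternatives were no filter or a filter at 100, the mean of all probe sets, quantile normalization again, array weights, another variance prior, the replicate block, only the groups compared, and each array left out. The mean of both genotypes against control and a fit of every probe set were added after the data were seen. Promoters came from RefSeq tables (GRCm38.p6).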

Additional observations from a re-analysis of the deposited data

Results flagged for a closer look

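In 110 sets of a member and a group with 4 or 5 hearts, 7 held an array far from the others by Dixon's test, which chance alone does in about 1 in 20 sets. Gclm in WT triolein replicate 2 read 5.969, where the other 3 hearts read 7.239 to 7.366. Txnrd1 in WT trilinolein replicate 5 read 8.265 against 8.032 to 8.098. Srxn1 read 5.489 in WT tridocosahexaenoin replicate 5 against 5.133 to 5.228, 5.02 in KO trilinolenin replicate 5 against 5.351 to 5.456, and 4.87 in KO Wy14643 replicate 4 against 5.354 to 5.465. Nqo1 read 7.234 in WT tridocosahexaenoin replicate 3 against 7.606 to 7.758, and 6.611 in KO trilinolenin replicate 5 against 7.899 to 7.948. KO trilinolenin replicate 5 appears for both Srxn1 and Nqo1, and its array weight was 0.492, where weights ranged from 0.472 to 1.72.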

How the results depend on the processing

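Of 33 member results called in any comparison, 20 kept their call without any 1 array, 24 in every other setting in which the gene was tested, and 19 in all of these. Counts of called members moved by more than 1.5 times as follows. With a filter at 100 on the linear scale, which leaves Gsta3 and Osgin1 untested, 1 was called for trilinolein in WT, 1 for trilinolenin in WT, 2 for the genotypes over 6 gavages, 0 for tridocosahexaenoin against trilinolenin, and 2 each for trilinolein and trilinolenin in the mean of genotypes. Without a filter, 1 was called for trilinolein and 0 for tridocosahexaenoin in WT. With the mean of all probe sets, 1 was called for trilinolein in WT and 1 for triolein in the mean of genotypes. With array weights there were 3 for tridocosahexaenoin in WT, 4 in the mean of genotypes, and 1 for Wy14643 in that mean. After quantile normalization again, tridocosahexaenoin had 2 in WT and 2 in KO hearts. In fits of only the groups compared, tridocosahexaenoin had 0 in WT, 0 in KO, 1 in the mean of genotypes and 0 against trilinolenin, and trilinolein had 1 in KO hearts. The cause was not tested, other than for the filter at 100.

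With 1 array left out, counts ranged from 0 to 2 for trilinolein, 1 to 3 for trilinolenin and 0 to 2 for tridocosahexaenoin in WT; from 0 to 3, 3 to 4 and 0 to 2 in KO hearts; from 3 to 5, 4 to 5 and 1 to 4 in the mean of genotypes; from 4 to 5 for the genotypes over 6 gavages; from 1 to 2 for trilinolein and 0 to 1 for tridocosahexaenoin against triolein; from 0 to 1 for tridocosahexaenoin against trilinolenin; and from 0 to 1 for the slope in WT. Nfe2l2 over 6 gavages reversed from -0.03 to 0.08107 (adjusted p = 0.0318) with the mean of its probe sets, of which 1 is under the brightness minimum on all arrays; the cause was not tested.

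Replicate numbers did not pair the hearts: the median correlation of same-numbered hearts was 0.000363 over 281 pairs, with 62 over 0.1, and 10 of 55 hearts correlated best with their own number. With the replicate block, 4 members were called for trilinolenin in KO (with Gclc, adjusted p = 0.0448) and 5 for the genotypes over 6 gavages (with Nqo1, 0.016), and the other counts were 0 to 4 as without it.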
